A study of Mus musculus with 12 samples.

Results

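The genes described here are 51 members of the TGF-beta and BMP signalling system of the mouse: ligands, latent TGF-beta binding proteins, secreted antagonists, receptors, SMAD proteins, nuclear corepressors and a few well known targets. They were taken from a fixed list of gene symbols, matched to the Ensembl identifiers of the count table through GENCODE M21, and all 51 were found among its 55487 genes. RNA sequencing was made of 12 libraries in 4 groups of 3. Of these, 6 came from Hepa1, an established hepatoma line of the mouse that the labels give as wild type. The others came from primary embryonic fibroblasts (MEFs) that carry the label Bach1-/-. Each cell type was kept for 4 days in medium that immortalised MEFs had conditioned for 48 h. In the control medium the donors were control cells; in the ferroptotic medium they were cells with Bach1 re-expressed, which the labels call ferroptotic. All 4 groups received 2-mercaptoethanol at 0.1 mM and vitamin E at 0.4 mg/mL with the medium, which held 10% fetal bovine serum and was renewed every day. The genotype of the control donor cells beyond their name is not given in the labels, and cell type and Bach1 genotype cannot be told apart, since no wild-type MEFs and no knockout Hepa1 cells are among the 12 libraries. The question of each medium comparison is which of these genes differ between cells in the ferroptotic and in the control medium.

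Ligands of this family bind pairs of type I and type II receptor kinases, which phosphorylate receptor SMADs. TGF-beta and activin mostly signal through SMAD2 and SMAD3, BMPs through SMAD1, SMAD5 and SMAD9, and both branches share SMAD4. TGF-beta is secreted in a latent complex that latent TGF-beta binding proteins tether to the matrix, whereas noggin, gremlin and the follistatins trap BMPs or activins outside the cell. SMAD6 and SMAD7 inhibit the pathway, SKI, SKIL and TGIF1 repress SMAD target genes in the nucleus, and the ID genes, which encode inhibitors of basic helix-loop-helix transcription factors, are classical targets of the BMP branch. In fibroblasts TGF-beta is known for inducing matrix and contractile genes.

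The promoters of 3 of the ID genes are shown because the ID genes were higher in the ferroptotic medium wherever they were tested. That of Smad6 is shown because, among the members with a promoter window, only Smad6 held GTCTAGAC. The sequences are those of RefSeq for GRCm38.p6, from 250 bases before to 30 bases after the annotated start, and 36 of the 51 members had such an entry. Id1, Smad7, Skil and Nog were among those without one, so they were not searched for the motifs. The capitals mark GGCGCC, a core of BMP-responsive elements, or GTCTAGAC, the palindromic SMAD-binding element. Each motif is its own reverse complement, so 1 search covers both strands, and the 2 motifs do not overlap each other.
Id2: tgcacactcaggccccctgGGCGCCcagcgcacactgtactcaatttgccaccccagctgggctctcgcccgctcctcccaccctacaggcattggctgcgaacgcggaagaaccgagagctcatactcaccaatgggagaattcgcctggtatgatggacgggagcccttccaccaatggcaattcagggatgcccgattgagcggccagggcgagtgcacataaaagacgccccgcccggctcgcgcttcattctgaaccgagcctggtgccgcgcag
Id3: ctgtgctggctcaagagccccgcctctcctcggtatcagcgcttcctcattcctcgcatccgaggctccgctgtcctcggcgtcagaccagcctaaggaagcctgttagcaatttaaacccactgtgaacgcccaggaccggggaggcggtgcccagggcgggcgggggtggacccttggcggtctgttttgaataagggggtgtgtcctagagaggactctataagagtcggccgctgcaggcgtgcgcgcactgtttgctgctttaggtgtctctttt
Id4: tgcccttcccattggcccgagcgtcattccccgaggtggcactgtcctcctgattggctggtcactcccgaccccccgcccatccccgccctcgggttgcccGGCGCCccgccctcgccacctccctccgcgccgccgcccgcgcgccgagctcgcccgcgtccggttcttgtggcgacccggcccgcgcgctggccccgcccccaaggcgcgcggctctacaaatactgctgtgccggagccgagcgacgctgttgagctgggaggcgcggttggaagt
Smad6: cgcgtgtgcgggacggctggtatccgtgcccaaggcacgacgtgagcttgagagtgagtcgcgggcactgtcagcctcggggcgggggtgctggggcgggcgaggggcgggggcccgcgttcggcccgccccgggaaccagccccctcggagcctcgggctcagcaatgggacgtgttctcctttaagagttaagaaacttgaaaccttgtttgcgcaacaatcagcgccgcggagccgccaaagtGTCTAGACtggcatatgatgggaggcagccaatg
The windows lie at chr12:25096063-25096342 on the minus strand (Id2), chr4:136143572-136143851 on the plus strand (Id3), chr13:48260866-48261145 on the plus strand (Id4) and chr9:64022030-64022309 on the minus strand (Smad6). By GENCODE M21, Id2 spans 25093799 to 25097140 and Id3 spans 136143497 to 136145755. Both of these windows thus lie inside the M21 gene and not before its start. The starts meant here are those of RefSeq. Id2 held GGCGCC beginning 231 bases before the start and Id4 held it 148 bases before; Id3 held neither motif in this window. GTCTAGAC began 4 bases before the start of Smad6. GGCGCC was present in 3597 of the 32851 promoter windows of this length (10.9%) and in 15 of the 48 windows of members, which belonged to 13 genes. GTCTAGAC was present in 63 windows (0.192%), of which 1 belonged to a member. These matches are letters in a window and were not tested as binding sites.

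Per library, 18582713 to 23397981 reads fell on genes. Levels are given as counts per 1000000 reads (CPM), with marker sums scaled over all 12 libraries. Hepa1 expressed 5 of 12 hepatocyte markers above 1 CPM in each medium, and their summed level was 483 to 507 CPM in control and 1401 to 1520 CPM in ferroptotic medium; Ttr, Apoa1, Apoc3, Serpina1a and Ahsg had no read in the control libraries. All 10 fibroblast markers were above 1 CPM in MEFs, with sums of 30264 to 31638 CPM in control and 27343 to 28215 CPM in ferroptotic medium, against 338 to 411 CPM in Hepa1. In control medium 9 of the 10 were higher in MEFs. The other, Dcn, was lower in MEFs than in Hepa1 (log2 difference -5.73). In Hepa1 the sum of 8 macrophage markers was 34.6 to 40.1 CPM in control and 13.7 to 16.1 CPM in ferroptotic medium, with Ptprc, Tyrobp and Itgam at 0. Of the 4 tested there, 3 were lower in ferroptotic medium and 1 was higher: Adgre1, which encodes the macrophage marker F4/80, went from 0.0341 ± 0.0295 to 1.99 ± 0.323 CPM (SD, n = 3; log2 fold change 5.61, adjusted p = 5.17e-11). In MEFs 5 smooth muscle markers summed to 697 to 786 CPM in control and 346 to 360 CPM in ferroptotic medium; Acta2, Tagln and Cnn1 are also counted among the TGF-beta targets below, as are the fibroblast markers Col1a2, Col3a1 and Postn, and Dcn is among the antagonists. Endothelial markers reached at most 9.91 CPM in any library, with Cdh5, Emcn and Tie1 at 0. The 6 epithelial markers summed to 1881 to 1987 CPM in Hepa1 in control and 1767 to 1808 CPM in ferroptotic medium, and to 0.406 to 0.720 CPM in MEFs in control medium. In MEFs in ferroptotic medium they summed to 0.274, 0.487 and 3.22 CPM, the last in the third library. The part of any of these markers in the results was not tested. Bach1 itself stood at 139 to 147 plain CPM in Hepa1 in control medium, 116 to 127 CPM in ferroptotic medium and 72.1 to 82.1 CPM in MEFs; the deleted part of the gene is not given in the labels, so whole-gene counts do not check the knockout. The third Hepa1 library in ferroptotic medium held reads of genes typical of the MEFs: 37 genes with at least 500 CPM in MEFs in control medium and less than 0.2 CPM in Hepa1 in control medium reached 0.113% of their MEF level there, against 0.00823% and 0.0136% in the other libraries of the group and 0.00462 to 0.00912% in the Hepa1 control libraries. Results that rest on this library are given with and without it. In turn, 2 genes with at least 500 CPM in Hepa1 and less than 0.2 CPM in MEFs, both in control medium, reached 0.101% of their Hepa1 level in the third MEF library in ferroptotic medium, against 0.00765% and 0.00946% in the other libraries of that group. No call of a member between media in MEFs was lost without that library.

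Most members were expressed. In control medium 32 of the 51 had a mean of at least 1 CPM in Hepa1 and 46 in MEFs. In Hepa1, 9 members had no read in control medium and 8 had none in ferroptotic medium, which allows up to 3 reads over the 3 libraries of a group, whereas every member had reads in MEFs. In Hepa1, 33 members passed the filter on low counts and were tested between media; 13 were higher in the ferroptotic medium, 13 were lower and 7 did not pass the threshold, an adjusted p under 0.05 (Benjamini-Hochberg over all genes). Over all 13169 genes tested in Hepa1, 58.1% passed, 29.3% higher and 28.8% lower, so that the called share of members, 78.8%, is read against that of all genes. The other 18 members had too few reads to be tested in Hepa1, among them all 9 without a read in control medium. In MEFs 47 members were tested, of which 12 were higher, 27 lower and 8 not called (83% called); Bmp3, Bmp7, Bmpr1b and Gdf5 were too low to test. Over all 14441 genes tested in MEFs, 55% passed, 27.8% higher and 27.2% lower. With scaling by total counts alone, the split over all genes in MEFs moved from 4009 higher and 3934 lower to 5211 higher and 2957 lower, and that of the members to 14 higher and 25 lower. The median log2 fold change, ferroptotic over control medium, was -0.04 for the members tested in Hepa1 and -0.20 for those in MEFs, beside 0.00446 and 0.0033 for all genes tested. Members that changed at least 2-fold were 2 higher and 0 lower in Hepa1, where 6.57% of all genes did so (the share is 4.5% for higher genes and 2.07% for lower), and 6 higher and 3 lower in MEFs, where 6.76% did (4.38% higher and 2.38% lower). The 3 libraries of one medium lay entirely above or below those of the other for 25 of the 26 called members in Hepa1, with Fstl1 as the exception, and for all 39 in MEFs. The same was not counted over all called genes, so it is not read as a trait of the members. In bulk RNA, a lower level because fewer cells express a gene and one because each cell holds less of it cannot be told apart.

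**Figure D1:**
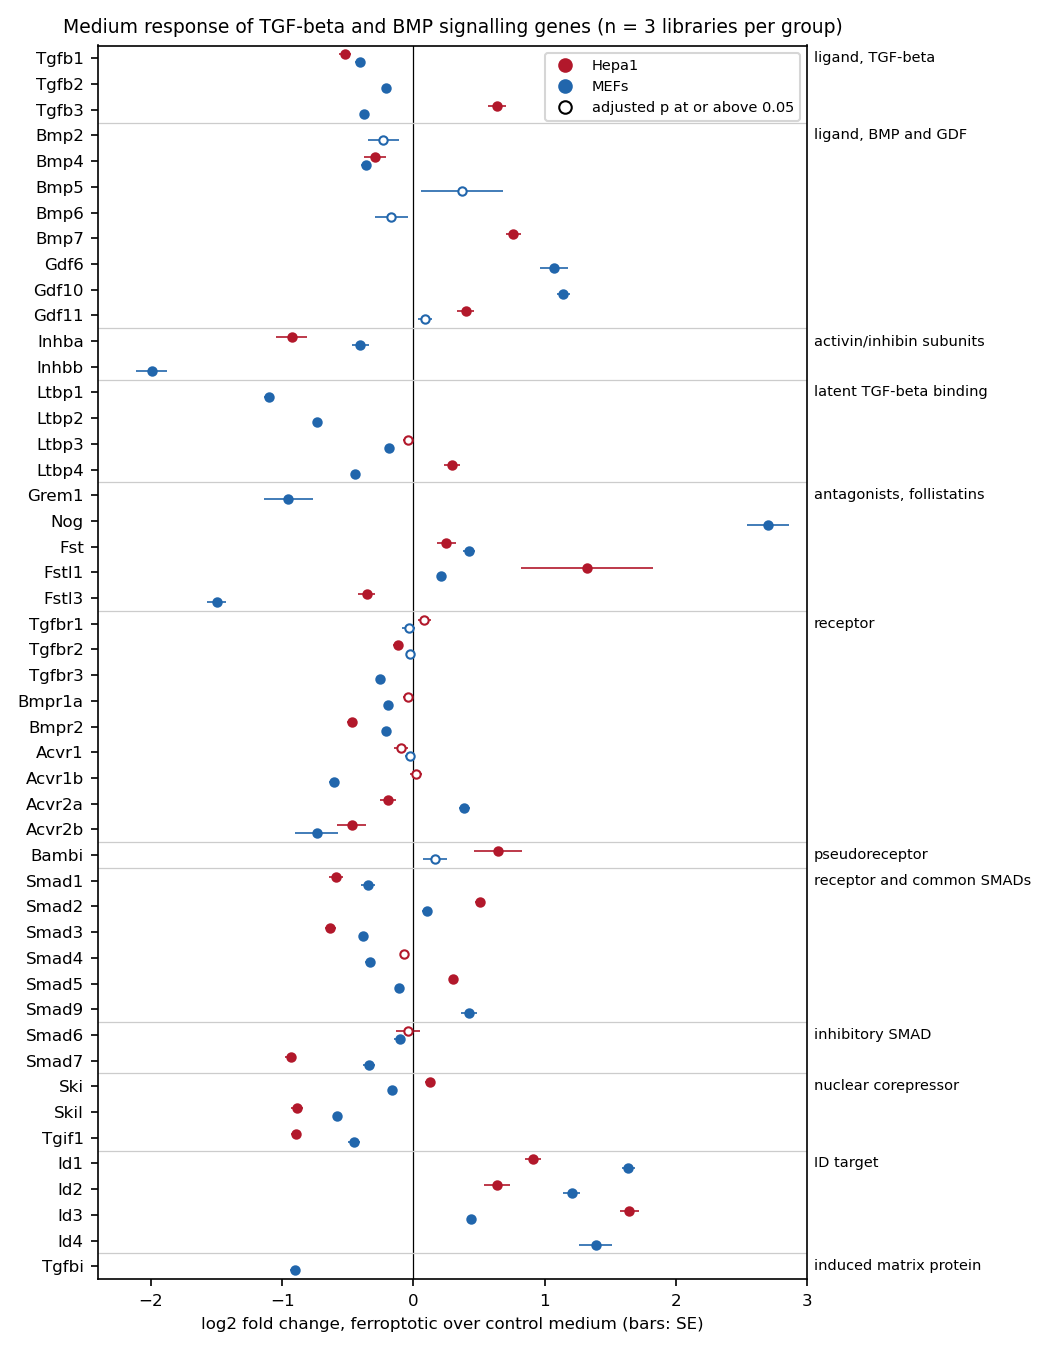
Log2 fold change of each tested member between ferroptotic and control medium (x axis), with its standard error as a bar, in Hepa1 (red) and MEFs (blue), grouped by role (right). Filled points passed an adjusted p of 0.05 and open points did not; the 4 ID genes lie to the right of 0 wherever they were tested, and the 4 latent TGF-beta binding proteins lie to the left of 0 in MEFs.

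The ID genes were higher in the ferroptotic medium in both cell types: 3 of 3 tested in Hepa1 and 4 of 4 in MEFs. Over all genes tested, 29.3% were higher in Hepa1 and 27.8% in MEFs. Whether BMP signals had a part in this was not tested. Id1 (ENSMUSG00000042745; chromosome 2, 152736251 to 152737410, plus strand, in GRCm38 by GENCODE M21, as for the positions below) stood at 26.6, 24.0 and 23.8 normalised CPM in the 3 Hepa1 libraries in control medium and at 43.3, 49.4 and 47.1 CPM in ferroptotic medium. The groups did not overlap, and the log2 fold change was 0.91 (SE 0.06, adjusted p = 4.95e-13). In MEFs Id1 stood at 22.2, 22.0 and 19.7 CPM in control medium and 67.7, 67.0 and 63.9 CPM in ferroptotic medium, about 3 times as high, with a log2 fold change of 1.64 (SE 0.05, adjusted p = 2.93e-33). Id2 was 7.4, 9.41 and 8.17 CPM in Hepa1 in control medium against 11.7, 13.9 and 13.4 CPM, a log2 fold change of 0.64 (SE 0.10, adjusted p = 2.87e-06). Its MEF values were tighter, 11.9, 11.9 and 12 CPM against 27.9, 26.1 and 28.5 CPM (log2 fold change 1.21, SE 0.07, adjusted p = 2.19e-22).

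Id3 (ENSMUSG00000007872; chromosome 4, 136143497 to 136145755, plus strand) had the reverse order of responses. In Hepa1 it went from 8.58, 9 and 8.70 CPM to 26.6, 29.0 and 26.8 CPM, a log2 fold change of 1.65 (SE 0.08, adjusted p = 8.26e-17). In MEFs, where it was abundant, it went from 228, 224 and 222 CPM to 308, 297 and 307 CPM, a log2 fold change of 0.44 (SE 0.03, adjusted p = 3.53e-19). The difference of responses, MEFs minus Hepa1, was -1.21 (SE 0.08, adjusted p = 1.54e-17) for Id3, and was 0.72 for Id1 (adjusted p = 5.28e-10) and 0.56 for Id2. Id4 had no read in any Hepa1 library and in MEFs rose from 3.21, 3.65 and 2.39 CPM to 7.47, 8.43 and 8.40 CPM (log2 fold change 1.39, SE 0.13, adjusted p = 5.68e-14). The Hepa1 response of Id3, whose level is high in MEFs, was 1.61 to 1.67 when each library was left out in turn, the third ferroptotic one included.

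Of the genes that restrain the pathway inside the cell, Smad7, Skil and Tgif1 were lower in the ferroptotic medium in both cell types, which did not hold for Ski and Smad6. Smad7, which blocks receptor signalling and is itself induced by TGF-beta, stood at 151, 156 and 153 CPM in Hepa1 in control medium and 84.7, 80.9 and 74.6 CPM in ferroptotic medium, a fall by 0.94 on the log2 scale (SE 0.04, adjusted p = 6.43e-17). Each ferroptotic library lay far below each control. In MEFs it was 49.0, 46.9 and 47.1 CPM against 37.9, 38.3 and 36.9 CPM, a log2 fold change of -0.34 (SE 0.05, adjusted p = 5.99e-09), and the difference of responses was 0.60. Skil (ENSMUSG00000027660; chromosome 3, 31095058 to 31122577, plus strand), a corepressor also induced by TGF-beta, went from 123, 138 and 125 CPM to 70.7, 68.3 and 69.5 CPM in Hepa1 (log2 fold change -0.89, SE 0.04, adjusted p = 6.18e-16). In MEFs it went from 138, 137 and 137 CPM to 88.1, 96.9 and 90.4 CPM (log2 fold change -0.58, SE 0.03, adjusted p = 1.81e-21). Tgif1, a homeobox corepressor of SMAD2, was 184, 197 and 203 CPM against 106, 107 and 102 CPM in Hepa1 (log2 fold change -0.89, SE 0.04, adjusted p = 5.53e-17). Its MEF values were 57.5, 61.1 and 61.4 CPM against 45.5, 43.8 and 42.4 CPM (log2 fold change -0.45, adjusted p = 3.08e-13). Ski did not follow them: its log2 fold change was 0.13 in Hepa1 (adjusted p = 0.00508) and -0.17 in MEFs.

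Among the members with a promoter window, which leaves out Smad7 and Skil, only Smad6 held GTCTAGAC. Smad6, the inhibitor that acts mainly on the BMP branch, did not pass in Hepa1 and fell slightly in MEFs. It was 13.1, 12 and 12.8 CPM in Hepa1 in control medium and 11.6, 11 and 14 CPM in ferroptotic medium, overlapping groups with a log2 fold change of -0.04 (adjusted p = 0.705). In MEFs it was 70.5, 68.2 and 69.2 CPM against 67.6, 60.8 and 65.0 CPM, a log2 fold change of -0.10 (SE 0.04, adjusted p = 0.0211). That call was lost without the first control library (adjusted p = 0.0655) or the second ferroptotic one (0.186), and with total counts (0.464), DESeq2 (0.0783) or all 12 libraries in the fit (0.0572).

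**Figure D2:**
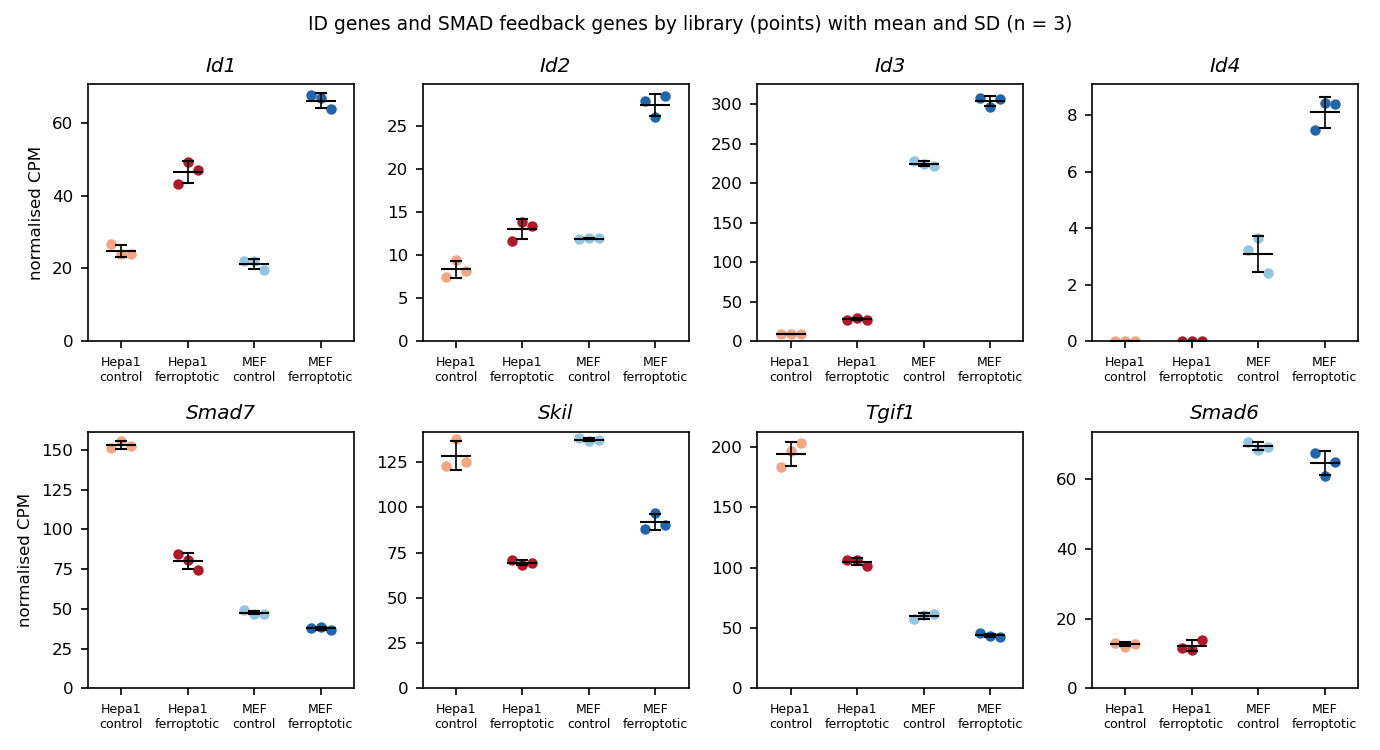
Normalised CPM (y axis, linear from 0) of Id1 to Id4 and of Smad7, Skil, Tgif1 and Smad6 in each of the 12 libraries (points), with the mean and SD of each group of 3. The ferroptotic libraries lie above their own controls for the ID genes with reads and below them for Smad7, Skil and Tgif1; CPM were scaled within each cell type, so levels are compared here only between media.

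Among the receptor SMADs, the TGF-beta branch split. Smad2 was higher in Hepa1 in the ferroptotic medium, 260, 262 and 258 CPM against 368, 376 and 362 CPM (log2 fold change 0.50, SE 0.03). Smad3 fell there from 122 ± 3.71 to 78.7 ± 2.35 CPM (SD, n = 3), a log2 fold change of -0.63 (SE 0.04). In MEFs Smad3 also fell, by 0.38 on the log2 scale, whereas Smad2 was 74.0, 73.7 and 72.4 CPM against 79.6, 79.3 and 77.7 CPM, a log2 fold change of 0.10 with an adjusted p of 0.0112 that became 0.0559 without the third control library and 0.0553 with DESeq2. On the BMP side Smad1 fell in both cell types (log2 fold change -0.59 in Hepa1 and -0.35 in MEFs). Smad5 was higher in Hepa1 (0.31) and lower in MEFs (-0.11, adjusted p = 0.00235, and 0.261 with total counts), and Smad9, which had at most a few reads in Hepa1, rose in MEFs (0.42). The shared Smad4 fell in MEFs (-0.33) and did not pass in Hepa1 (-0.07, adjusted p = 0.0521).

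Of the TGF-beta and activin ligand genes, 5 of 5 were lower in the ferroptotic medium in MEFs, and in Hepa1 2 of 3 tested were lower and 1 higher. Over all genes tested, 27.2% were lower in MEFs, and 28.8% were lower and 29.3% higher in Hepa1. Tgfb1 (ENSMUSG00000002603; chromosome 7, 25687002 to 25705077, plus strand), which encodes the most studied TGF-beta, was 88.1, 82.9 and 90.1 CPM in Hepa1 in control medium and 60.4, 58.4 and 62.6 CPM in ferroptotic medium (log2 fold change -0.52, SE 0.05, adjusted p = 8.51e-11). In MEFs it was 75.7, 76.0 and 78.1 CPM against 57.4, 56.3 and 59.7 CPM (log2 fold change -0.40, adjusted p = 2.31e-13). All 3 TGF-beta ligand genes fell in MEFs, Tgfb2 by 0.21 and Tgfb3 by 0.38 on the log2 scale. Tgfb3 moved in opposite directions: in Hepa1 it rose from 17.1, 19.0 and 19.0 CPM to 26.6, 28.9 and 30.1 CPM (log2 fold change 0.63, SE 0.07, adjusted p = 5.79e-09), and in MEFs it fell from 217, 226 and 217 CPM to 166, 171 and 171 CPM (adjusted p = 2.38e-16). The difference of responses for Tgfb3 was -1.02 (SE 0.07, adjusted p = 5.28e-16).

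Inhba, the subunit of activin A, went from 7.45, 7.58 and 7.49 CPM to 3.90, 3.82 and 4.11 CPM in Hepa1, each ferroptotic library well below each control (log2 fold change -0.93, SE 0.12, adjusted p = 1.07e-07). In MEFs it was 23.5, 24.7 and 23.0 CPM against 20, 16.6 and 17.3 CPM (log2 fold change -0.40, adjusted p = 4.6e-07). Inhbb, the subunit of activin B, had no read in Hepa1 and fell in MEFs from 10.2, 10.3 and 11.2 CPM to 2.17, 2.96 and 2.79 CPM, with a log2 fold change of -1.99 (SE 0.12, adjusted p = 8.27e-21).

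The BMP and GDF ligands differed between the cell types in which genes were expressed at all. Bmp7 was a Hepa1 gene, with 28.1, 24.9 and 26.3 CPM in control and 43.5, 46.8 and 44.2 CPM in ferroptotic medium (log2 fold change 0.76, SE 0.06, adjusted p = 5.99e-12), and had 7 and 8 reads in all in the MEF groups. Gdf10, a divergent ligand also called BMP3B, had no read in Hepa1 and rose in MEFs from 28.4, 28.0 and 25.0 CPM to 62.4, 58.8 and 58.6 CPM (log2 fold change 1.14, SE 0.05, adjusted p = 8.58e-27). Gdf6, a joint-patterning BMP, rose in MEFs from 4.12, 4.10 and 4.35 CPM to 8.78, 8.56 and 9.07 CPM (log2 fold change 1.07, SE 0.11, adjusted p = 1.84e-12). Bmp4 fell in both, by 0.29 in Hepa1 (adjusted p = 0.00378) and 0.36 in MEFs on the log2 scale. Gdf11 rose in Hepa1 (0.40) and did not pass in MEFs (0.09); Bmp2, Bmp5 and Bmp6 did not pass in MEFs, and Bmp3 and Gdf5 were too low to test in either cell type.

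The genes of extracellular traps changed in both directions. Nog (ENSMUSG00000048616; chromosome 11, 89300638 to 89302332, minus strand) encodes noggin, a high-affinity BMP antagonist; it had no read in Hepa1, and in MEFs it was 0.814, 1.14 and 1.32 CPM in control medium and 7.83, 6.41 and 7.11 CPM in ferroptotic medium. Its log2 fold change of 2.7 (SE 0.16, adjusted p = 1.69e-20) was the largest of the members tested in MEFs. Grem1, another BMP antagonist, fell in MEFs from a mean of 3.06 to 1.59 CPM (log2 fold change -0.95, adjusted p = 1.8e-05). Fst, which traps activin, rose in Hepa1 (0.25, adjusted p = 0.00297) and in MEFs (0.43, adjusted p = 3.72e-12). Fstl3, a second activin trap, fell in MEFs from 26.9, 30.4 and 28.9 CPM to 9.69, 9.33 and 11.4 CPM (log2 fold change -1.50, SE 0.07, adjusted p = 8.18e-25) and less in Hepa1, from 38.3, 31.8 and 36.5 CPM to 29.0, 26.6 and 27.7 CPM (log2 fold change -0.35, adjusted p = 3.52e-05). The difference of responses for Fstl3 was -1.15 (adjusted p = 5.81e-13).

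Fstl1 is a follistatin-like glycoprotein and one of the most abundant members in MEFs, where it rose from a mean of 2244 to 2594 CPM (log2 fold change 0.21, adjusted p = 3.29e-09). In Hepa1 it had 12, 11 and 4 reads in control medium and 8, 10 and 52 reads in ferroptotic medium, so that 1 library holds most of them. The Hepa1 log2 fold change of 1.32 (SE 0.50, adjusted p = 0.0265) became -0.00552 (adjusted p = 0.993) without the third ferroptotic library, the one with reads of MEF genes. The call was also lost without the third control library (0.98, adjusted p = 0.124) and with DESeq2 (adjusted p = 0.25). Of the 2 members with a 2-fold rise in Hepa1, Id3 and Fstl1, the second therefore rests on that library. The difference of responses for Fstl1, -1.12 (adjusted p = 0.0448), became 0.22 (adjusted p = 0.761) without it. That call was also lost without the second (adjusted p = 0.0563) or the third Hepa1 control library (0.198), without any single MEF library (0.0509 to 0.065), with DESeq2 size factors (0.0503) and with the DESeq2 Wald test (0.367).

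Of the latent TGF-beta binding proteins, 1 of 2 tested in Hepa1 was higher in the ferroptotic medium and 0 were lower. Their called share was 50%, beside 58.1% of all genes (29.3% higher and 28.8% lower). In MEFs 4 of 4 were lower, beside 27.2% of all genes. Ltbp1, the main carrier of latent TGF-beta in the matrix, went from 148, 152 and 143 CPM to 70.3, 69.5 and 66.8 CPM (log2 fold change -1.10, SE 0.03, adjusted p = 4.61e-33). Ltbp2, which binds fibrillin rather than latent TGF-beta, went from 1372, 1491 and 1392 CPM to 880, 827 and 845 CPM, a log2 fold change of -0.74 (SE 0.03). In Hepa1 Ltbp2 had 1, 1 and 2 reads in control medium and 4, 7 and 27 in ferroptotic medium and was not tested within Hepa1. Its difference of responses, -3.82 (SE 0.68), was -2.66 (adjusted p = 0.00209) without the third ferroptotic Hepa1 library. With means of 1419 CPM in MEFs and 0.0692 CPM in Hepa1 in control medium, Ltbp2 itself meets the rule for the genes typical of MEFs. It passed the filter over all libraries through MEFs. Whether its Hepa1 reads are reads of MEFs was not tested, so its difference is not read as one of medium responses. Ltbp4 fell in MEFs (-0.44) and rose in Hepa1 (0.30), a difference of -0.74 (adjusted p = 4.41e-12). Ltbp3 fell in MEFs (-0.18), from 1069, 1098 and 1115 CPM to 979, 945 and 966 CPM, and in Hepa1, with 441, 383 and 430 CPM against 398, 408 and 415 CPM, did not pass (-0.04). Its difference of responses of -0.15 had an adjusted p of 0.0267, which lay between 0.0533 and 0.148 with total counts alone and without each of 5 single libraries: the second Hepa1 control, the third Hepa1 ferroptotic, the second MEF control, the third MEF control and the second MEF ferroptotic library. Tgfbi, a matrix protein named for its induction by TGF-beta, had 1 and 2 reads in the Hepa1 groups and fell in MEFs from 174 ± 8.10 to 93.3 ± 5.58 CPM (SD, n = 3; log2 fold change -0.90, adjusted p = 2.58e-28).

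**Figure D3:**
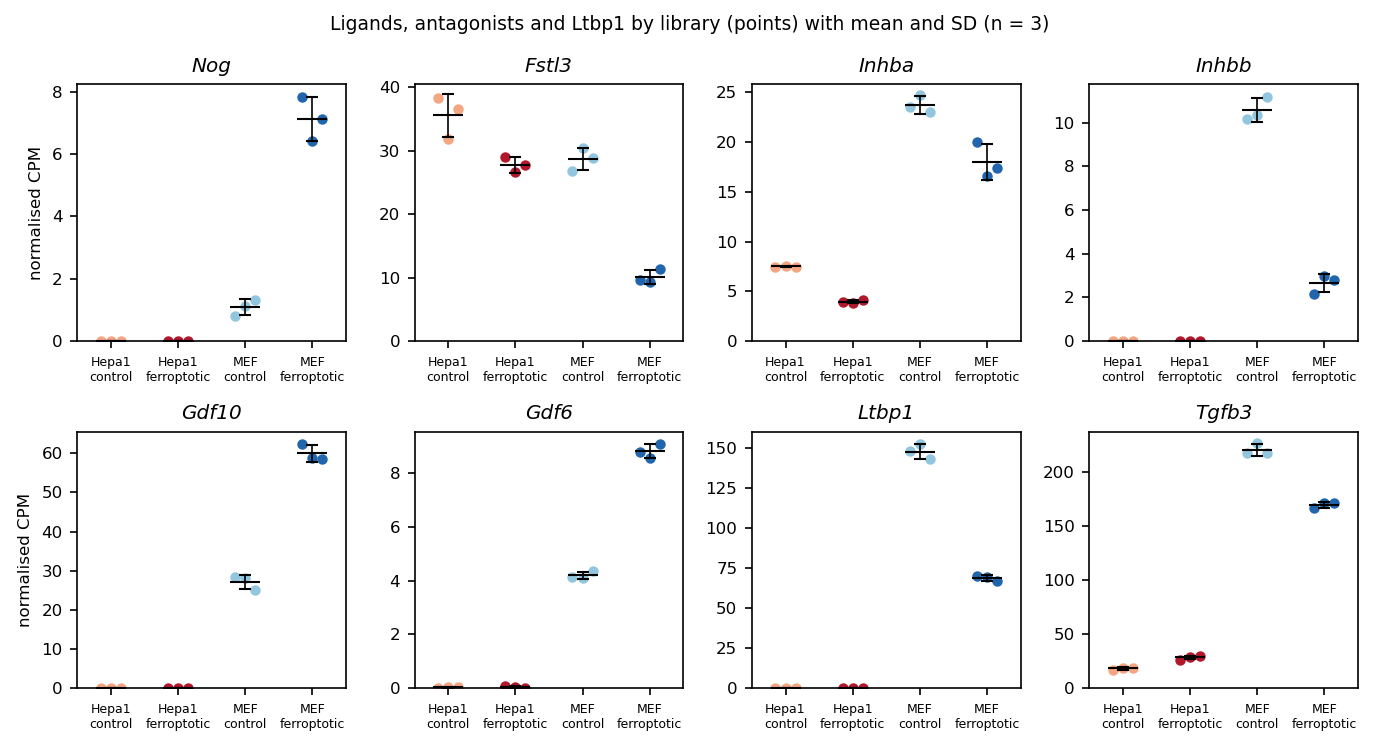
Normalised CPM (y axis, linear from 0) of Nog, Fstl3, Inhba, Inhbb, Gdf10, Gdf6, Ltbp1 and Tgfb3 in each library (points), with the mean and SD of each group of 3. In MEFs Nog, Gdf10 and Gdf6 lie higher and the other genes lower in the ferroptotic medium, while Nog, Inhbb and Gdf10 lie at 0 in Hepa1; CPM were scaled within each cell type.

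Changes of the receptors stayed below 2-fold in both cell types. In Hepa1, 0 of 8 tested receptors were higher and 4 lower, and in MEFs 1 of 9 was higher and 5 lower. The called shares were 50% in Hepa1, below the 58.1% of all genes, and 66.7% in MEFs, beside 55% of all genes. Bmpr2, the type II BMP receptor, fell in both cell types (log2 fold change -0.47 in Hepa1 and -0.21 in MEFs), as did Acvr2b, a type II activin receptor (-0.47 and -0.74). Acvr2a, its close relative, was 29.5, 31.8 and 30.3 CPM in Hepa1 against 26.3, 27.9 and 26.1 CPM (-0.19, adjusted p = 0.00758). In MEFs Acvr2a rose from 45.5, 44.7 and 44.5 CPM to 58.5, 60.2 and 57.5 CPM (0.39, adjusted p = 1.75e-11), and the difference of responses was 0.58 (adjusted p = 4.12e-09). Acvr1b, the type I activin receptor, fell in MEFs from 65.8 ± 1.07 to 43.3 ± 1.21 CPM (SD, n = 3; -0.60) and did not pass in Hepa1 (0.02), with a difference of -0.62 (adjusted p = 8.75e-12). Tgfbr1 and Acvr1 passed in neither cell type. Tgfbr2 was lower in Hepa1 by 0.12 on the log2 scale (adjusted p = 0.00767, and 0.0974 with total counts alone). Bmpr1a (-0.20) and the coreceptor Tgfbr3 (-0.26) fell in MEFs. Bambi, a pseudoreceptor without a kinase, rose in Hepa1 from 1.85, 1.63 and 1.63 CPM to 2.75, 2.81 and 2.47 CPM (0.65, adjusted p = 0.00386) and did not pass in MEFs (0.17).

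Among the 32 members tested in both cell types, 6 were higher in the ferroptotic medium in both: Id1, Id2, Id3, Smad2, Fst and Fstl1, the last with the reservation given above. Lower in both were 11, namely Tgfb1, Bmp4, Inhba, Bmpr2, Acvr2b, Smad1, Smad3, Smad7, Skil, Tgif1 and Fstl3. Opposite calls were made for 5: Tgfb3, Smad5, Ltbp4 and Ski were higher in Hepa1 and lower in MEFs, and Acvr2a the reverse. A call in the same direction was thus made for 53.1% of these members, beside 20.2% of the 12042 genes tested in both, and opposite calls for 15.6% beside 15.3%. The 2 cell types share no libraries, but they received the same kinds of medium, and the labels do not say whether the same batches. The difference of responses passed for 23 of the 32 members, 10 higher and 13 lower in MEFs, beside 54% of the genes tested in both cell types (25.9% higher and 28.1% lower). Over all 48 members tested on the 12 libraries, Ltbp2 included, 24 passed, 10 higher and 14 lower, beside 44.2% of 15627 genes (20.9% higher and 23.3% lower). The median difference of the 32 was -0.10, beside -0.02 over those genes.

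Other genes of the pathway were taken from lists that hold no member; Thbs1 and Pmepa1 are each counted in 2 of these lists, the TGF-beta targets and 1 other. Of 21 TGF-beta target genes, all were tested in MEFs, where 17 were lower and 4 higher, with a median log2 fold change of -0.55 (0.0033 over all genes); 27.2% of all genes were lower. Tgm2, a transglutaminase that cross-links matrix, fell most, from 187 ± 15.1 to 17.0 ± 1.10 CPM (SD, n = 3; log2 fold change -3.46, adjusted p = 1.13e-47). Itga11, a collagen-binding integrin subunit, fell by 2.05 on the log2 scale. The contractile gene Acta2 fell by 1.09, from 594 ± 33.9 to 279 ± 6.21 CPM (SD, n = 3). The summed smooth muscle markers, of which 3 are in this list, were also lower, 346 to 360 CPM against 697 to 786 CPM. These sums are scaled over all 12 libraries and the Acta2 values within MEFs, so they cannot be subtracted. The rises were of Postn (1.58), Cdkn2b (0.50), Snai2 (0.45) and Snai1 (0.13). In Hepa1, 11 were tested, with 6 lower and 4 higher and a median of -0.19; 90.9% were called, beside 58.1% of all genes. Junb, an AP-1 subunit, fell by 1.51 in Hepa1 and 1.39 in MEFs. Col1a2 rose by 3.37 in Hepa1 with all libraries, and by 0.72 (adjusted p = 0.0639) without the third ferroptotic one, when 3 targets were higher and 7 lower. With all 12 libraries in 1 fit, where more genes pass the filter, 8 were higher and 6 lower in Hepa1.

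Of 16 further BMP target genes, 11 were tested in MEFs, where 8 were higher and 0 lower, with a median log2 fold change of 0.50 (0.0033 over all genes) and 6 to 8 higher when each library was left out. The called share was 72.7%, beside 55% of all genes, of which 27.8% were higher. Hey1, a Notch and BMP target, rose by 2.32 on the log2 scale in MEFs, and the osteogenic regulators Dlx5 by 2.03, Sp7 by 1.74 and Runx2 by 0.45. In Hepa1, 6 were tested, with 3 higher and 2 lower and a median of 0.04 (0.00446 over all genes), a called share of 83.3% beside 58.1%. Atoh8, a helix-loop-helix factor, rose there from 2.60 ± 0.219 to 16.7 ± 0.95 CPM (SD, n = 3; log2 fold change 2.68, adjusted p = 7.3e-18) and in MEFs from 61.3 to 87.3 CPM (0.51). Alpl, alkaline phosphatase, rose in Hepa1 from 0.172 to 1.22 CPM (2.79), while Runx2 fell there (-0.93, adjusted p = 0.00152).

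**Figure D4:**
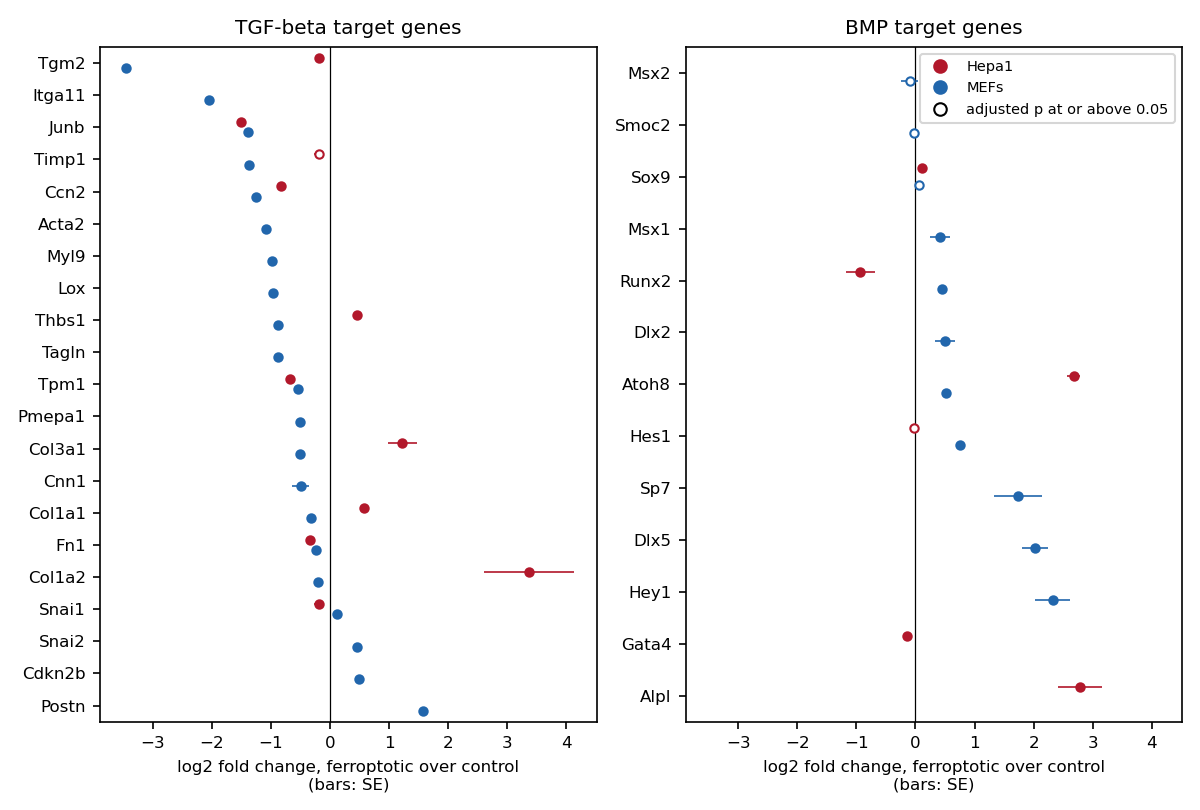
Log2 fold change between ferroptotic and control medium (x axis) of the tested TGF-beta target genes (left) and BMP target genes (right), with standard errors, in Hepa1 (red) and MEFs (blue); open points did not pass an adjusted p of 0.05. In MEFs 17 of 21 TGF-beta targets lie lower and 8 of 11 BMP targets were called higher; the Hepa1 point of Col1a2 rests on the third ferroptotic library.

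Of the genes that release or hold latent TGF-beta, 7 of 10 tested were lower in MEFs and 2 higher, a called share of 90% beside 55% of all genes. These included Tll1, a tolloid protease (log2 fold change -2.24), Lrrc32, which displays latent TGF-beta on cell surfaces (95.1 to 37.3 CPM, -1.35), and Thbs1, thrombospondin-1 (-0.88). In Hepa1 2 of 7 were higher and 3 lower, 71.4% called beside 58.1%. Furin, the protease that cleaves TGF-beta precursors, fell in both (-0.47 in Hepa1 and -0.38 in MEFs), whereas Thbs1 rose in Hepa1 (0.45). The Hepa1 rise of Fbn1, fibrillin-1 (0.95), was 0.08 (adjusted p = 0.889) without the third ferroptotic library, and its call was also lost without the first (0.147) or the third control library (0.0851) and with DESeq2 (0.108). In MEFs Fbn2, fibrillin-2, rose by 0.93 on the log2 scale.

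Among other secreted antagonists and modulators, 4 of 12 tested in MEFs were higher and 6 lower, 83.3% called beside 55% of all genes. Chrdl1, a chordin-like BMP antagonist, rose from 0.378 ± 0.0344 to 6.39 ± 0.534 CPM (SD, n = 3; log2 fold change 4.05, adjusted p = 1.83e-23), and Dcn, decorin, by 1.77, while Kcp fell by 1.06. In Hepa1 3 of 8 were higher and 2 lower, 62.5% called beside 58.1%. Htra3, a serine protease that inhibits TGF-beta signals, rose there by 2.19 and Twsg1 by 0.22, while Nbl1, another BMP antagonist, fell by 2.05 on the log2 scale and Crim1 by 0.21. The Hepa1 value of Dcn was 0.17, a call lost without the third control library (adjusted p = 0.0651), without the second ferroptotic one (0.0588) and with DESeq2 (0.141). Of the other ligands, 5 were tested in MEFs, where Gdf15, a stress-induced ligand, rose (1.76) and Lefty1 fell (-1.57), 40% called beside 55% of all genes. In Hepa1 neither of 2 tested passed, beside 58.1% of all genes, with Gdf15 at 0.06. Other receptors and coreceptors were 3 higher and 2 lower of 5 in MEFs, 100% called beside 55%, where Rgma rose by 0.45 and Neo1 by 0.34. In Hepa1 they were 0 higher and 2 lower of 4, where Rgmb fell by 0.48 and the called share was 50% beside 58.1%. SMAD ubiquitin ligases and cofactors were 2 higher and 8 lower of 15 in MEFs, with Pmepa1 (-0.51), Smurf2 (-0.50) and Nedd4l (-0.45) falling most, and 2 higher and 6 lower of 14 in Hepa1, with Nedd4l (-0.35), Rnf111 (-0.28) and Smurf1 (-0.26). Their called shares were 66.7% in MEFs, beside 55% of all genes, and 57.1% in Hepa1, about that of all genes (58.1%).

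The members differed widely between the cell types in control medium. All 48 members tested over the 12 libraries passed, 40 higher and 8 lower in MEFs, beside 86.6% of all 15627 genes (46% higher and 40.7% lower). Only 32 members had enough reads to be tested within both cell types. The others of the 48 passed the filter through 1 cell type, mostly MEFs, so their direction here follows from the filter. At least 2-fold higher were 33 and 5 were at least 2-fold lower, beside 47.3% of all genes (28.3% higher and 19% lower). Both counts include members that passed the filter through 1 cell type. With scaling by total counts alone, which moved the median of all genes by -0.56 on the log2 scale, the split of members became 36 and 12, and Tgfb1, Smad5, Fstl3 and Id1 turned to lower in MEFs; over all genes it went from 7181 higher and 6356 lower to 5004 and 9101. Under all scalings tried, Bmp7 (log2 difference -7.29), Smad2 (-1.27), Smad4 (-1.27), Tgif1 (-1.14), Smad7 (-1.13), Acvr2b (-0.64), Smad1 (-0.63) and Tgfbr1 (-0.16) were lower in MEFs. Members without a read in Hepa1 in control medium give lower bounds, taken against 3 reads over the group: Gdf10 was at least 772-fold higher in MEFs, Inhbb at least 300.1-fold, Bmp2 at least 146-fold, Bmp6 at least 139-fold, Id4 at least 87.6-fold, Grem1 at least 87.1-fold and Nog at least 31.0-fold. For Bmp3 and Gdf5, with 12 and 5 reads in MEFs and too low to test, the bounds were only 5.39-fold and 2.21-fold.

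Per length of transcript (RPKM, CPM per kilobase of exon), the highest members in Hepa1 in control medium were Smad4 (105), Ltbp3 (38.1), Tgif1 (28.6), Ski (28.2), Smad7 (28.0) and Smad2 (24.4). In MEFs in control medium they were Fstl1 (553), Ltbp2 (210), Id3 (152), Ltbp3 (146), Ski (129) and Tgfbr2 (83.9), so that Ltbp3 and Ski are among the first 6 in both. Among the ID genes the RPKM order in control medium was Id1 (17.7), Id3 (4.04) and Id2 (2.82) in Hepa1, and Id3 (152), Id1 (22.2), Id2 (5.93) and Id4 (0.971) in MEFs; in ferroptotic medium Id1 led Id3 in Hepa1 (33.2 against 12.7) and Id3 led Id1 in MEFs (205 against 69.0).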

How the data were processed

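The deposited files hold raw read counts per Ensembl gene, made by the authors. A count table covers the whole series and a file for each sample repeats its column, with 0 differing values. The submitters' processing notes name GRCm38 (mm10), FastQC 0.11.9, STAR 2.7.10a, Trimmomatic 0.39 and HTSeq 0.9.1. Annotation release: not given in the sources used here; strand setting: likewise. HTSeq's 5 summary lines stayed out of all fits; they held 2.00 to 2.58% (no gene) and 3.66 to 4.03% (ambiguous) of reads. GENCODE M21 named 55227 identifiers and left 260 unnamed. Exons of 13 members overlap a gene on the other strand (Tgfb2, Tgfb3, Bmp4, Bmp5, Bmp6, Bmpr1a, Acvr2a, Gdf5, Fst, Fstl3, Id4, Ltbp2 and Ltbp3), whose reads were not told apart. Per the labels' protocols, a NEBNext Ultra II RNA kit and 100 ng of total RNA served for each library.

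Groups came from the sample titles. For the medium response, the 6 libraries of a cell type were fitted with TMM scaling and filterByExpr in edgeR 4.0.16 (R 4.3.3), and its quasi-likelihood F-test gave p-values. These were adjusted by Benjamini-Hochberg over all genes tested, and a gene was called at an adjusted p under 0.05. The difference of responses and the difference between cell types were fitted over all 12 libraries. Normalised CPM of single genes are scaled within each cell type's fit. Marker sums, lower bounds between cell types and RPKM are scaled over all 12 libraries, RPKM with union exon lengths. Floors, of 3 reads over the libraries of a group, cover counting error only. Separate cultures are not stated for the replicates, so the p-values reflect only the spread between these libraries, which may be technical. Same-numbered libraries of the 2 media deviated from their group means with correlations of -0.0143 to 0.0366, so the numbers were not treated as pairs. The pipeline was tested on simulated counts of genes with enough reads and 1 fixed spread. Of 1.25-fold changes, 72% were recovered in Hepa1, 74% in MEFs and 52% for the difference of responses. Of 2-fold changes, 99%, 99% and 92% were recovered. False calls were 4.47%, 3.89% and 6.49% of those made. A small change that did not pass may thus have been missed.

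The members and gene lists were chosen with earlier results of these data known. Full values are given for called members with a log2 change of at least 1 and 1 CPM in a group, the 8 largest called changes per cell type, the 5 largest differences of responses, and members whose call is lost without 1 library. Up to 3 genes of each other list and cell type are also named, many of them with a log2 fold change alone. Other genes with values were added after their values were seen. A listed TGF-beta target is not reported here and is left out of its list's counts. Alternatives were DESeq2 size factors, total counts, no count filter, the Wald test of DESeq2 1.42.0, a replicate block, a fit on all 12 libraries and leaving out each library.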

Additional observations from a re-analysis of the deposited data

Results flagged for a closer look

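These members responded to the medium differently in MEFs and Hepa1 by the test of the difference itself (edgeR quasi-likelihood interaction over 12 libraries, log2 response in MEFs minus that in Hepa1). The difference was negative for Ltbp2 (-3.82), Id3 (-1.21), Fstl3 (-1.15), Fstl1 (-1.12), Tgfb3 (-1.02), Ltbp4 (-0.74), Acvr1b (-0.62), Smad5 (-0.42), Smad2 (-0.40), Gdf11 (-0.31), Ski (-0.30), Smad4 (-0.26), Bmpr1a (-0.16) and Ltbp3 (-0.15). It was positive for Id1 (0.72), Smad7 (0.60), Acvr2a (0.58), Id2 (0.56), Inhba (0.52), Tgif1 (0.44), Skil (0.30), Bmpr2 (0.26), Smad3 (0.25) and Smad1 (0.24). For Smad7, Inhba, Tgif1, Skil, Bmpr2, Smad3 and Smad1 a positive value means a smaller fall in MEFs than in Hepa1. Ltbp2 and Fstl1 rest on few Hepa1 reads, most of them in the third ferroptotic library. Without it their differences were -2.66 (adjusted p = 0.00209) and 0.22 (adjusted p = 0.761). Ltbp2 also meets the rule for the genes typical of MEFs. Whether its Hepa1 reads are reads of MEFs was not tested, so its value is not read as a difference of medium responses. The call of Fstl1 (adjusted p = 0.0448) was also lost in 10 other settings (adjusted p 0.0503 to 0.367), and that of Ltbp3 (0.0267) in 6 (0.0533 to 0.148).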

How the results depend on the processing

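The counts of called members stayed within 1.5 times their values under every alternative run: leaving out 1 library gave 12 to 14 higher and 13 to 15 lower members in Hepa1, 11 to 12 and 26 to 27 in MEFs, and 10 to 12 and 11 to 13 for the difference of responses. Of the called members, 24 of 26 in Hepa1, 36 of 39 in MEFs, 22 of 24 for the difference of responses and 44 of 48 for the cell types kept direction and call in each setting run. The exceptions were Fstl1 and Tgfbr2 in Hepa1, Smad2, Smad5 and Smad6 in MEFs, Fstl1 and Ltbp3 for the difference of responses, and Tgfb1, Smad5, Fstl3 and Id1 for the cell types. With the replicate number as a block, 13 members were higher and 13 lower in Hepa1 and 12 and 27 in MEFs; no call of a member changed with the block, and replicate numbers matched best for 1 Hepa1 and 1 MEF library. Values that changed sign with total counts alone were Smad6 (0.00244), Bmpr1a (0.00718) and Ltbp3 (0.00857) in Hepa1, Tgfbr1 (0.0318), Tgfbr2 (0.0449) and Acvr1 (0.0394) in MEFs, and, between cell types, Tgfb1 (-0.20), Smad5 (-0.32), Fstl3 (-0.32) and Id1 (-0.23). When each library was left out, values spanned 0 for Smad6 (-0.156 to 0.0235), Ltbp3 (-0.0981 to 0.00125) and Fstl1 (-0.00552 to 1.73) in Hepa1, for Acvr1 in MEFs (-0.0703 to 0.0267), and in the difference of responses for Smad6 (-0.139 to 0.0572) and Fstl1 (-1.54 to 0.221). Both turns of Fstl1 came without the third ferroptotic Hepa1 library. Beyond the shift by total counts, the cause was not tested.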
